A study of Homo sapiens with 4 samples.

Results

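The 81 cytosolic ribosomal protein genes described here were chosen by name from the 26490 genes of the table: RPL or RPS followed by a number and at most one of the letters A, X or L, plus RPLP0, RPLP1, RPLP2 and RPSA. They comprised 49 genes of the large and 32 genes of the small ribosomal subunit. The rule used names and no measured value, but earlier results of these data were known when the genes were chosen. The study mapped the RNA contacts of DHX36, a DEAH-box helicase that binds and unwinds RNA G-quadruplexes (stacks of guanines that pair with each other), by PAR-CLIP in HEK293 cells, a human embryonic kidney line. In PAR-CLIP, cells take up 4-thiouridine (4SU), ultraviolet light crosslinks the labelled RNA to the protein, and crosslinked positions appear in the sequenced RNA fragments as T-to-C changes; a cluster is a group of overlapping reads with more such changes than the caller expected by chance. The cells were Flp-In T-REx HEK293 lines with a stably integrated, tetracycline-inducible transgene for Flag- and HA-tagged (FH) DHX36. Tetracycline was given at 500 ng/ml for 15 h, and the living cells were crosslinked for 5 min at 365 nm. The first line expressed FH-DHX36, made from isoform 2, and the other expressed FH-DHX36-E335A (E335A in the following), a mutant in the catalytic DEAH motif made from isoform 1, so that isoform and mutation differ together and cannot be told apart. There were 2 replicates per line, but the table gives 1 value per gene and line, so no difference between the lines has a replicate error and none was tested. Both lines overexpressed the tagged protein, and no PAR-CLIP of an unrelated protein or of untagged cells was analysed here.

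Ribosomal proteins join the ribosomal RNAs to form the 40S and 60S subunits, and their mRNAs are among the most abundant and shortest of a dividing cell. Most of these mRNAs begin with a terminal oligopyrimidine (TOP) tract, a C followed by further pyrimidines, through which growth signals acting via mTOR control their translation. Many of the genes carry small nucleolar RNAs (snoRNAs) in their introns, and most have processed pseudogenes elsewhere in the genome, whose sequence can be identical to parts of the mRNA.

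The pattern searched for was at least 4 runs of 2 or more G separated by 1 to 7 bases (both limits included, on the transcript strand only), a permissive pattern for sequences that could fold into a G-quadruplex. The matches below are examples, picked after the values were seen, from RP mRNAs on which the results turn, read from GRCh37/hg19 and printed 5′ to 3′ on the strand of the gene, with the G runs in capitals. RPS3 held the most crosslinked reads of all RP mRNAs in the E335A PAR-CLIP, and the one shown of its 3 matches lies in coding exon 3 (chr11:75112700-75112717, plus strand). RPL28 held the most in the FH-DHX36 PAR-CLIP, and the one shown of its 9 matches, 8 of which are in the 3′ UTR, lies there in exon 5 (chr19:55902122-55902136, plus strand). RPL22 and RPL27A were among the RP mRNAs with the highest binding per mRNA, and the ones shown of their 4 and 8 matches lie in the 3′ UTR (RPL22 in exon 4, chr1:6245889-6245900, minus strand; RPL27A in exon 5, chr11:8710695-8710714, plus strand). RPL13 and RPS23 are shown because each has a 3′ UTR match with 4 runs of at least 3 G (RPL13 in exon 6, chr16:89629514-89629538, plus strand; RPS23 in exon 4, chr5:81570334-81570361, minus strand). RPS9 has such a match in its coding sequence (exon 5, chr19:54711398-54711417, plus strand) and had no cluster in either PAR-CLIP.
RPS3: GGtgagaaGGGccGGcGG
RPL28: GGtGGGttGGGGtGG
RPL22: GGaGGtGGGaGG
RPL27A: GGtccttGGGcGGccgtGGG
RPL13: GGGaacaactGGGcctGGGatGGGG
RPS23: GGGagtGGGacagcgcGGGcgcccaGGG
RPS9: GGGccaGGGtGGGGctGGGG
The table gives the annotation of a cluster but not its position, so whether a cluster covered any of these matches was not tested.

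The FH-DHX36 PAR-CLIP held 2160413 crosslinked reads in 16742 clusters, and the E335A PAR-CLIP held 8752127 reads in 60208 clusters, 4.05 times as many reads. RP mRNAs were bound more often than the genes of the whole table in both. In the FH-DHX36 PAR-CLIP, 60 of the 81 (74.1%, 95% Wilson interval 63.6 to 82.4) had at least 1 cluster, against 22.4% of all genes. In the E335A PAR-CLIP, 67 of 81 (82.7%, 73.1 to 89.4) had one, against 34.5% of all genes. The table holds genes whatever their expression, and how many of them these cells express was not determined. The share among genes for mitochondrial ribosomal proteins, which build the separate ribosome of mitochondria, was 48 of 77 in the FH-DHX36 PAR-CLIP and 71 of 77 in the E335A PAR-CLIP. For translation initiation factors (EIF genes) it was 30 of 48 and 40 of 48. With exonic clusters only, 42 and 59 RP mRNAs were bound, against 19.0% and 32.2% of all genes.

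Binding was shared for 59 RP mRNAs, while 8 had a cluster only with E335A, 1 only with FH-DHX36, and 13 with neither. Over all genes of the table these classes held 21.4%, 13.1%, 0.985% and 64.5%. The 8 were RPL12, RPL14, RPL24, RPL31, RPL34, RPL39L, RPS20 and RPS27A, with 54 (RPL39L) to 420 (RPL31) crosslinked reads. Scaled to the smaller total of the FH-DHX36 PAR-CLIP, these counts would be 13.3 to 104 reads. Bound RP mRNAs there had 13 to 1628 reads, with a median of 189. Clusters are called singly and not on the sum of a gene. Whether the lower depth left these 8 without a cluster was not tested. The reverse case was RPL39, a small protein near the peptide exit tunnel, whose mRNA had 106 intronic reads with FH-DHX36 and none with E335A. At the depth of the latter the same share would have been 429 reads. Those without a cluster included RPL3L, RPL7A, RPL10, RPL10L, RPL21, RPL36A, RPS9, RPS18, RPS25, RPS26 and RPS27. RPL3L and RPL10L are known as tissue-restricted copies of RPL3 and RPL10, of muscle and testis, respectively. The table allows no estimate of the abundance of an mRNA without reads, so whether these 13 were expressed was not determined.

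RP mRNAs carried 18732 crosslinked reads in 186 clusters with FH-DHX36, or 0.867% (0.855 to 0.880) of all reads. With E335A they carried 95664 reads in 356 clusters, or 1.09% (1.086 to 1.100). Counting exonic reads alone, the shares were 0.701% and 0.656%, in the opposite order. Intervals for shares of reads cover counting error only, and reads amplified by PCR are not independent molecules. The intervals for numbers of bound genes treat genes as independent draws. The genes are a complete named set in the same libraries and are not replicates. Their share of clusters went the other way, 1.11% with FH-DHX36 and 0.591% with E335A. A cluster on an RP mRNA therefore held 101 reads on average with FH-DHX36, against 129 over all genes, and 269 reads with E335A, against 145. A bound RP mRNA had a median of 189 reads (range 13 to 1628) with FH-DHX36 and 937 (41 to 7122) with E335A, while the medians over all bound genes were 121 and 326. Per kb of transcript the medians were 193 and 888 reads, against 34.8 and 93.3 over the bound genes with an annotated canonical transcript.

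**Figure D1:**
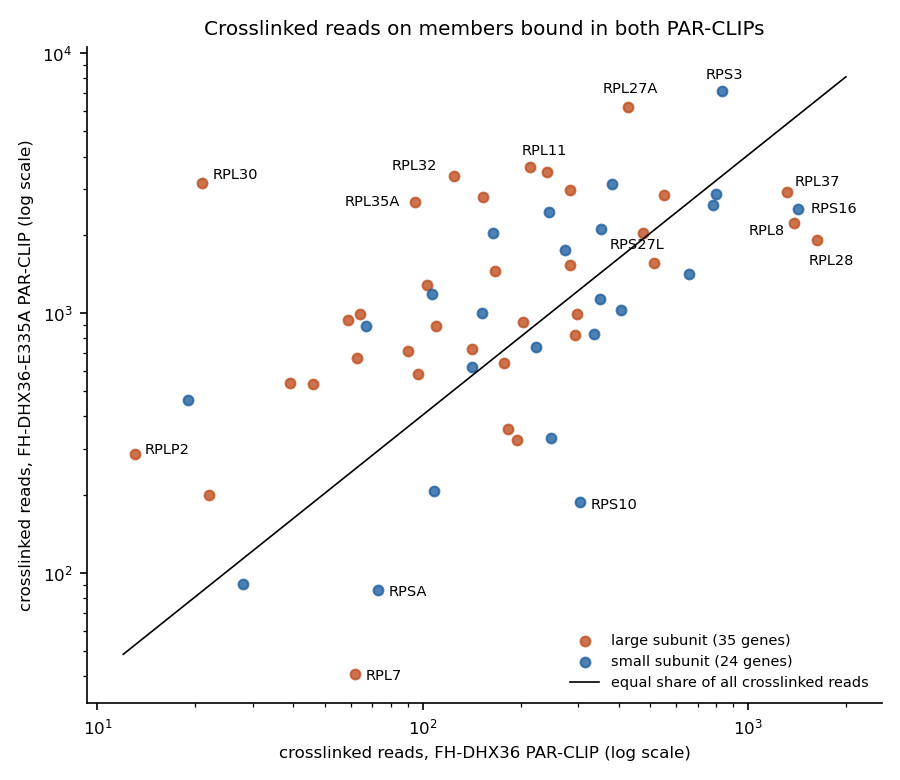
Crosslinked reads of the 59 RP mRNAs bound in both PAR-CLIPs, FH-DHX36 on the x axis and E335A on the y axis, both on log scales; each point is 1 gene, coloured by subunit, and the line marks an equal share of all reads. RPL30 and RPLP2 sit far above the line and RPS10 and RPL7 far below it, and RPS3, RPL27A and RPL28 carried among the highest counts.

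The 8 mRNAs with the most reads mostly differed between the PAR-CLIPs, whereas most of the first 20 were shared. The same overlaps among all genes were not determined. RPS3, a protein at the mRNA entry channel of the small subunit that also works in DNA repair, was the only gene among the 8 with the most reads in both (12.5% of each list), with 832 reads for FH-DHX36 and 7122 for E335A. Of the 20 with the most reads, 11 were shared (55% of each list). With FH-DHX36 the order was led by RPL28 (1628 reads), RPS16 (1427), RPL8 (1387) and RPL37 (1316), and RPS3, RPS4X (800) and RPS14 (658) were also among the first 8. With E335A it was led by RPS3, RPL27A (6190), RPL11 (3633) and RPL15 (3475), followed by RPL32 (3351), RPL30 (3161), RPS23 (3131) and RPL23 (2970). RPL23, a large subunit protein that also binds MDM2, had 283 reads with FH-DHX36, and 2448 of its 2970 reads with E335A lay outside the annotated UTRs, CDS and introns. The first 8 held 47.1% of all RP mRNA reads with FH-DHX36 and 34.5% with E335A, so that the signal was spread over more genes in the deeper PAR-CLIP. Across the 59 shared genes, the reads of the PAR-CLIPs had a Spearman rho of 0.553, against 0.630 over the 5669 genes bound in both. These correlations are across genes of the same libraries and are descriptions.

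The reads of RP mRNAs were few in relation to their abundance. The study's normalised measure, NXPM, takes the crosslinked reads relative to library size and divides them by mRNA abundance from RNA-seq, so the abundance could be recovered from reads and NXPM. It was the same in both PAR-CLIPs for 59 of 59 shared RP mRNAs, within 0.01%. Recovered abundance, in the unit of the study's RNA-seq, had a median of 4315 over the 68 bound RP mRNAs (range 32.0 to 32897), and 64 of them were at 1000 or above, whereas the median over all bound genes was 7.30 with FH-DHX36 and 5.89 with E335A. Median NXPM of RP mRNAs was 0.0144 (range 0.000619 to 1.23) with FH-DHX36 and 0.0159 (0.00148 to 2.82) with E335A, against 7.84 and 5.66 over all bound genes. An NXPM under 1 was found for 59 of 60 RP mRNAs with FH-DHX36 (background 14.4%) and 65 of 67 with E335A (background 18.4%). Values under 0.1 were found for 54 (background 2.66%) and 53 (background 3.14%), respectively. Mitochondrial ribosomal proteins had median NXPM of 0.487 and 0.756, translation initiation factors 2.43 and 1.89, and 20 other mRNAs known to begin with a TOP tract 0.291 and 0.416.

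**Figure D2:**
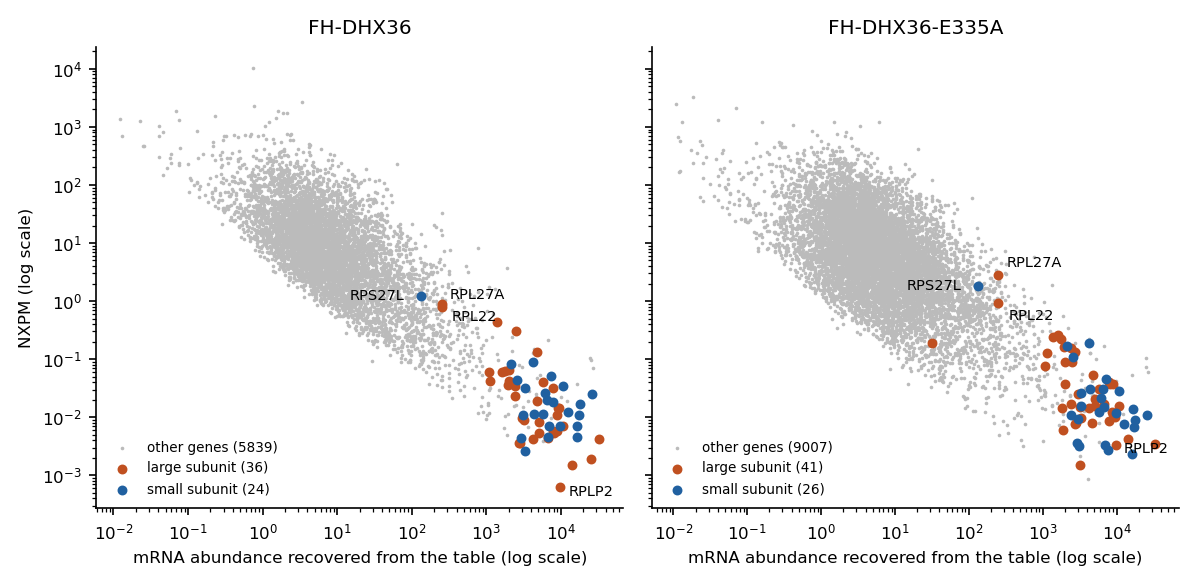
NXPM against the mRNA abundance recovered from the table, both on log scales, with FH-DHX36 on the left and E335A on the right; grey points are the other bound genes, coloured points RP mRNAs (31 and 57 genes with an abundance under 0.01 are not drawn). NXPM contains the reciprocal of the x axis, so the downward slope is partly built in, and RP mRNAs fill its lower right end.

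Other very abundant mRNAs also had low NXPM. Among genes at an abundance of at least 1000, the median NXPM was 0.0125 for 57 RP mRNAs and 0.0300 for 53 other genes with FH-DHX36, and 0.0155 for 63 and 0.0334 for 67 with E335A. Their median reads were 178 against 259 with FH-DHX36, and 925 against 884 with E335A. Per kb of transcript the medians were 201 against 140, and 888 against 654. Other genes without an annotated canonical transcript have no value per kb and are left out of these medians. RP mRNAs thus had fewer reads with FH-DHX36, slightly more with E335A, and more per kb in both. Among RP mRNAs themselves, reads hardly followed abundance, with a Spearman rho of 0.050 over 60 genes and -0.011 over 67, compared with 0.212 and 0.317 over all bound genes. RP mRNAs span a narrower range of abundance, with 64 of 68 at 1000 or above. The part of this range in the lower rho was not tested. RPLP1, the most abundant at 32897, had 298 and 987 reads.

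The 3 genes RPL27A, RPS27L and RPL22, of comparatively low abundance, stood at the top of the NXPM scale in both PAR-CLIPs. RPL27A, a large subunit protein, had an NXPM of 0.789 with FH-DHX36 (428 reads) and 2.82 with E335A (6190 reads), at an abundance of 251. RPS27L, a p53-inducible relative of RPS27, had 1.23 (353 reads) and 1.82 (2113 reads), at an abundance of 133. RPL22, which binds RNA and also acts outside the ribosome, had 0.873 (476 reads) and 0.917 (2024 reads), at an abundance of 252. The next were RPL37 (0.440) and RPL28 (0.303) with FH-DHX36, and RPL11 (0.257) and RPL37 (0.240) with E335A. RPL37 sits next to the 5.8S rRNA in the large subunit, and RPL28 is found in eukaryotes but not in bacteria.

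At the low end, RPLP2, RPL37A, RPL39, RPS13 and RPL30 had the lowest NXPM with FH-DHX36, between 0.000619 (RPLP2, 13 reads) and 0.00355 (RPL30, 21 reads). With E335A the lowest were RPL7 (0.00148), RPS15 (0.00231), RPS10 (0.00275), RPSA (0.00319) and RPS15A (0.00335). None of the 5 was in both sets. The lowest values with FH-DHX36 rested on 13 to 106 reads and those with E335A on 41 to 330. Across the 59 shared RP mRNAs, NXPM of the 2 PAR-CLIPs had a Spearman rho of 0.711, but the same abundance stands in both values.

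Crosslinked reads on RP mRNAs lay outside the annotations more often than those of all genes in both PAR-CLIPs. They lay in introns more often with FH-DHX36, and only slightly more often with E335A. Exonic reads lay more often in the CDS and less often in the 3′ UTR, by little with FH-DHX36 and by much with E335A. By exonic clusters, the CDS share was 47.1% with FH-DHX36 (all genes 38.3%) and 36.8% with E335A (all genes 35.7%). The 3′ UTR share by clusters was 40.2% (all genes 51.5%) and 53.8% (all genes 59.2%). The large CDS excess with E335A was thus seen in reads and hardly in clusters. Of the exonic reads with E335A, 4.17% were 5′ UTR reads, while 41.5% (41.0 to 41.9) lay in the CDS and 54.4% (53.9 to 54.8) in 3′ UTRs, against 5.21%, 22.9% and 71.9% over all genes. With FH-DHX36 the shares were 8.76%, 40.8% (39.9 to 41.7) and 50.4% (49.5 to 51.3), against 10.7%, 38.0% and 51.4%. With E335A, mitochondrial ribosomal proteins had 39.8% of exonic reads in the CDS and 58.1% in 3′ UTRs. Translation initiation factors had 29.96% and 64.6% there, and the other TOP mRNAs 60.9% and 36.1%. Each of these lists thus differed from all genes in the same direction as RP mRNAs with E335A. With FH-DHX36 the same pairs were 45.3% and 50.9%, 33.2% and 60.4%, and 30.02% and 65.6%, respectively. By genes, a 3′ UTR cluster was present in 18 of 60 RP mRNAs with FH-DHX36 (background 52.5%) and in 32 of 67 with E335A (background 78.4%). A CDS cluster was present in 30 (background 46.9%) and 43 (background 65.2%), and a 5′ UTR cluster in 11 (background 18.6%) and 18 (background 20.4%).

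**Figure D3:**
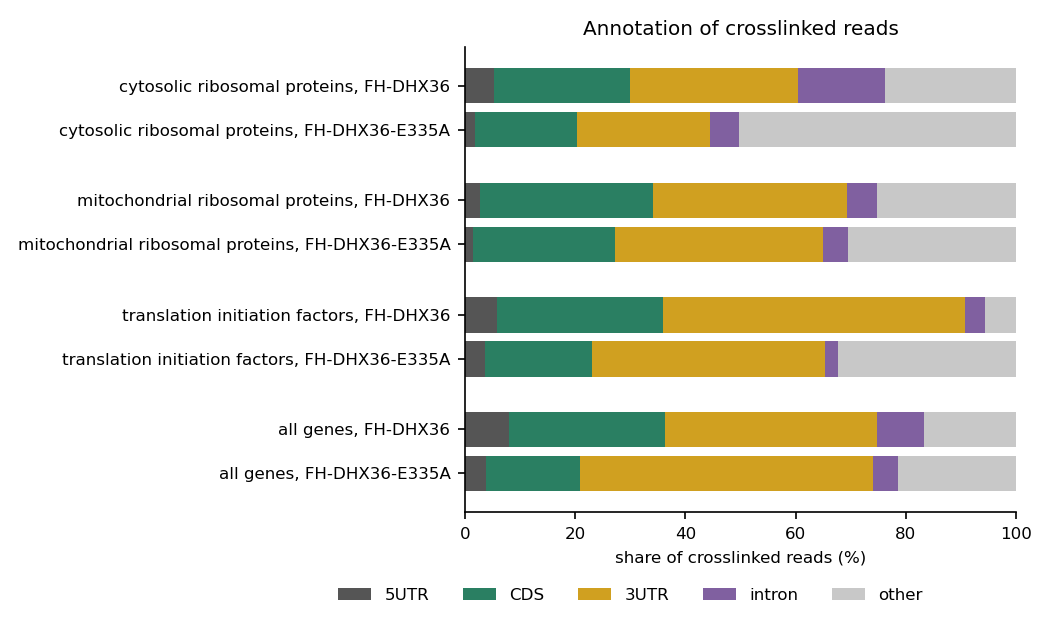
Share of crosslinked reads (x axis, %) in the 5′ UTR, CDS, 3′ UTR, introns and outside these annotations ("other"), for RP mRNAs, mitochondrial ribosomal proteins, translation initiation factors and all genes in each PAR-CLIP. With E335A, 50.2% of RP mRNA reads fell outside the 4 annotations, against 21.4% over all genes.

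Reads that the table assigns to a gene but to none of the 4 annotations made up 23.8% of RP mRNA reads with FH-DHX36 (all genes 16.7%) and 50.2% with E335A (all genes 21.4%). A cluster of this kind was present in 30 of 60 RP mRNAs with FH-DHX36 (background 20.9%) and in 49 of 67 with E335A (background 45.4%). Such reads were most of the reads of 18 of 60 RP mRNAs with FH-DHX36 (background 10.4%) and 26 of 67 with E335A (background 12.6%). What these positions are is not given by the table. RPL27A had 4587 such reads of 6190 with E335A and none of 428 with FH-DHX36, where all its reads lay in the 3′ UTR. RPL11 had 3551 of 3633 and none of 213. RPL32, RPL30 and RPL5 had 2907 of 3351, 2754 of 3161 and 2473 of 2797, respectively. The sum of these reads was of the same order as that of exonic reads for RP mRNAs, so shares among exonic reads leave out much of their signal. Mitochondrial ribosomal proteins had 25.3% and 30.4% of their reads there, translation initiation factors 5.58% and 32.4%, and the other TOP mRNAs 40.1% and 52.7%. Single genes set some of these values: without EEF2 the other TOP mRNAs were at 14.4% and 23.2%, and without EIF2S3, a subunit of the factor that brings the initiator tRNA, the initiation factors were at 13.2% with E335A. Without RPS3, the mRNA with the most reads, RP mRNAs were at 53.3% with E335A.

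Introns held 15.7% of RP mRNA reads with FH-DHX36 (all genes 8.51%) and 5.33% with E335A (all genes 4.48%). The small subunit genes stood higher, at 26.4% and 10.2%, than the large subunit genes, at 6.95% and 2.23%. An intronic cluster was present in 23 of 60 RP mRNAs with FH-DHX36 (background 24.3%) and 28 of 67 with E335A (background 23.9%), and introns held most of the reads of 10 (background 13.1%) and 8 (background 5.90%). RPS28, RPS10, RPS7, RPS3A, RPL10A and RPL7 had most or all of their reads in introns in both PAR-CLIPs. RPS28 had 313 of 337 intronic reads with FH-DHX36 and 808 of 827 with E335A, and RPS7, which interacts with MDM2, had 223 of 223 and 687 of 737. For RPS10 all 304 and all 187 reads were intronic. RPS19 (228 reads) was also among the 4 with the most intronic reads with FH-DHX36, and RPS2 (850) and RPS24 (556) with E335A. The leading 4 with E335A, RPS2, RPS28, RPS7 and RPS24, held 2901 (56.8%) of the 5103 intronic RP mRNA reads. All 4 are small subunit genes, and the small subunit had 3800 intronic reads in all. Its higher intronic share with E335A thus rests largely on these 4 genes. The intronic share without RPS2 was not determined. The 29 RP genes that contain an annotated snoRNA, 58 snoRNA genes in all, had 14.6% and 5.42% of their reads in introns, close to the 16.3% and 5.26% of the 52 without one. By bound genes, an intronic cluster was present in 9 of 23 hosts and 14 of 37 others with FH-DHX36. With E335A the counts were 12 of 24 (50%) and 16 of 43 (37.2%). The difference between hosts and others was not tested.

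The 3′ UTR reads came mainly from RP mRNAs with a long 3′ UTR in the annotation. Over the 81 genes the median length of the 3′ UTR was 136 nt and of the transcript 785 nt, against 1074 and 2994 nt over all 17931 genes with an annotated canonical transcript. With E335A, the 40 genes above the median 3′ UTR length had 65.4% of their exonic reads there, in 27 genes, and the 41 at or under it had 18.1%, in 5 genes. With FH-DHX36 the shares were 59.5%, in 15 genes, and 29.8%, in 3 genes. The 4 mRNAs with the most 3′ UTR reads with E335A were RPS3 (3792), RPL15 (3460), RPL37 (2645) and RPL22 (1773), which held 50.5% of those reads. With FH-DHX36 they were RPL37 (1282), RPL28 (987), RPS16 (858) and RPL27A (428), with 62.3%. RPS16, a small subunit protein whose tail reaches the tRNA, had no 3′ UTR read with E335A, although its total there was 2507.

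In the coding sequence, 3 of the 4 leading genes were shared by the PAR-CLIPs, namely RPS3, RPL8 and RPS4X. RPS3 had 390 CDS reads with FH-DHX36 and 2468 with E335A, RPL8 had 390 and 1419, and RPS4X, the X-linked copy of an RNA-binding small subunit protein, had 420 and 946. RPL28 led with FH-DHX36 at 641 reads and had 595 with E335A. RPL3, which reaches toward the peptidyl transferase centre, had 254 and 1489. In the 5′ UTR, which is short in these mRNAs (median 42 nt), RPS27L had 353 reads with FH-DHX36 and none with E335A. RPL26 had 97 and 400, RPL17 had 84 and 224, and RPL9 had 144 and none. RPS4X (178) and RPL23 (177) completed the leading 4 with E335A. The 4 leading genes held 68.3% of the 5′ UTR reads with FH-DHX36 and 55.1% with E335A, so the 5′ UTR shares rest on few genes.

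The difference between the PAR-CLIPs was expressed for each gene as the log2 ratio of its share of all reads, E335A over FH-DHX36. Over the 59 shared RP mRNAs the median log2 ratio was 0.56, against 0.12 over the 5669 genes bound in both, and it was 0.35 over the RP mRNAs with at least 50 reads in both. The share was at least 2-fold higher with E335A for 24 of 59 (40.7%, background 28.6%) and at least 2-fold higher with FH-DHX36 for 10 (background 24.8%). It was higher at any fold with E335A for 36 (background 53.4%). In unscaled reads only RPS10 and RPL7, 2 of the 59, had more with FH-DHX36 (background 10.7%). The large subunit had a median of 1.00 with 25 of 35 genes above 0, and the small subunit a median of -0.23 with 11 of 24 above 0. Among genes with at least 50 reads in both, the large subunit median was 0.57 (29 genes) and the small subunit median -0.23 (22 genes). The difference between the subunits was not tested. Mitochondrial ribosomal proteins had a median of 0.34 (48 genes) and translation initiation factors 0.66 (30 genes).

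**Figure D4:**
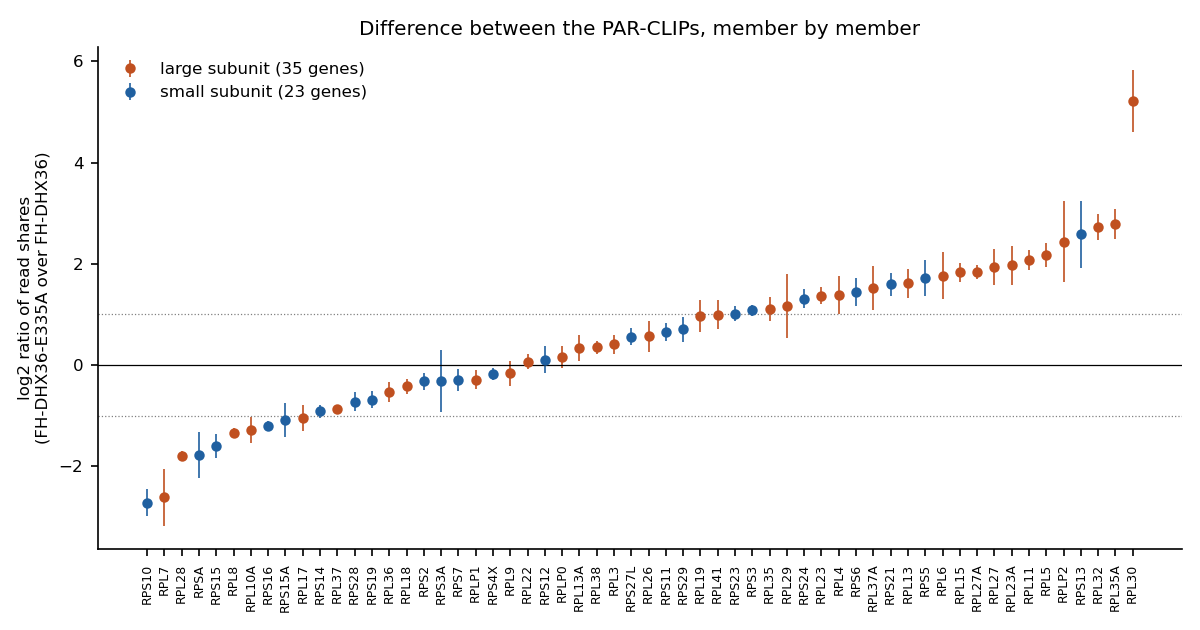
Log2 ratio of read shares, E335A over FH-DHX36 (y axis), for 58 of the 59 RP mRNAs bound in both PAR-CLIPs, ordered by the ratio; points are genes coloured by subunit, bars are 95% intervals for counting error only and dotted lines mark a 2-fold difference. The ratios ran from -2.72 (RPS10) to 5.22 (RPL30), with most large subunit genes above 0.

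Among genes with at least 50 reads in both PAR-CLIPs, RPL35A and RPL32 were furthest toward E335A. RPL35A, mutated in some families with Diamond-Blackfan anemia, a failure of red cell formation, had 95 reads with FH-DHX36 and 2673 with E335A, a ratio of 2.80 on the log2 scale, with a counting error of 0.15. RPL32 had 125 and 3351 reads, a log2 ratio of 2.73 with a counting error of 0.13. RPL5 (2.17) and RPL11 (2.07) came next. At the other end stood RPS10, also a Diamond-Blackfan anemia gene, with 304 and 187 reads and a log2 ratio of -2.72 with a counting error of 0.13. RPL28 had 1628 and 1911 reads (log2 ratio -1.79, counting error 0.05), RPSA, the laminin receptor precursor and a small subunit protein, 73 and 86 (-1.78, 0.23), and RPS15 248 and 330 (-1.61, 0.12). For RPL35A, RPL32, RPL5 and RPL11 the reads gained with E335A lay mostly outside the 4 annotations, at 1466, 2907, 2473 and 3551 reads. RPL30 had the largest ratio of all, 5.22, but from 21 reads with FH-DHX36, all outside the annotations, and 3161 with E335A.

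RPL5 and RPL11, which with the 5S rRNA form the particle that binds MDM2 and stabilises p53 when ribosome assembly fails, had similar ratios. RPL5 had 153 and 2797 reads, and RPL11 213 and 3633. Of their summed 6430 reads with E335A, 6024 (93.7%) lay outside the 4 annotations, against 135 of 366 (36.9%) with FH-DHX36. RPL11 had 120 CDS reads with FH-DHX36 and none with E335A.

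The stalk proteins RPLP0, RPLP1 and RPLP2, which recruit the translation factors, did not share a direction. RPLP0 had 204 and 925 reads (log2 ratio 0.16, counting error 0.11), and RPLP1 had 298 and 987 (-0.29, 0.10). RPLP2 had 13 and 286, a log2 ratio of 2.44 with a counting error of 0.41. The RPLP0 reads lay in the CDS with FH-DHX36 (204) but mostly in the 3′ UTR with E335A (619), whereas RPLP1 had most of its reads in the CDS in both (232 and 850).

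The paralog pairs differed in whether both copies were bound. RPL3 had 284 and 1530 reads, nearly all in the CDS with E335A (1489), and RPL3L had none. RPL10 and RPL10L had no cluster in either PAR-CLIP. RPL39 had 106 intronic reads with FH-DHX36, and RPL39L had 54 5′ UTR reads with E335A. RPS27 had no cluster, while RPS27L had 353 and 2113 reads. With E335A, 2001 of those RPS27L reads lay outside the 4 annotations. RPS27A, made as a fusion with ubiquitin, had 244 reads with E335A alone, 160 of them in the CDS. FAU, which encodes RPS30 fused to a ubiquitin-like protein and lies outside the name rule, had 79 and 469.

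RP mRNAs share much of their sequence with other places in the genome. A 30-nt window of an mRNA was called unique when no second perfect match was found on either strand of GRCh37 outside the gene. The median share of unique windows was 48.8% over the 81 RP mRNAs (36.2% with 20-nt windows), 98.7% over mitochondrial ribosomal proteins, 92.8% over translation initiation factors and 69.0% over the other TOP mRNAs. It was 58.3% for the 59 RP mRNAs bound in both PAR-CLIPs, 40.7% for the 8 bound with E335A only, and 29.7% for the 13 bound in neither. Among these last, RPL21 had no unique window and 133 annotated pseudogenes, whereas RPL10L had 94.8% unique windows, RPL3L 88.0% and RPL10 67.8%. The Spearman rho of this share with reads was 0.333 over 60 genes with FH-DHX36 and 0.550 over 67 genes with E335A, and with NXPM 0.220 and 0.410. How reads with several matches were handled is not given in the sources used here, and their part in the counts was not tested. These windows are of the mRNA and do not describe introns or positions outside the annotations. RPL9, with 6.19% unique windows, had 178 reads with FH-DHX36, all in the 5′ UTR and CDS.

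**Figure D5:**
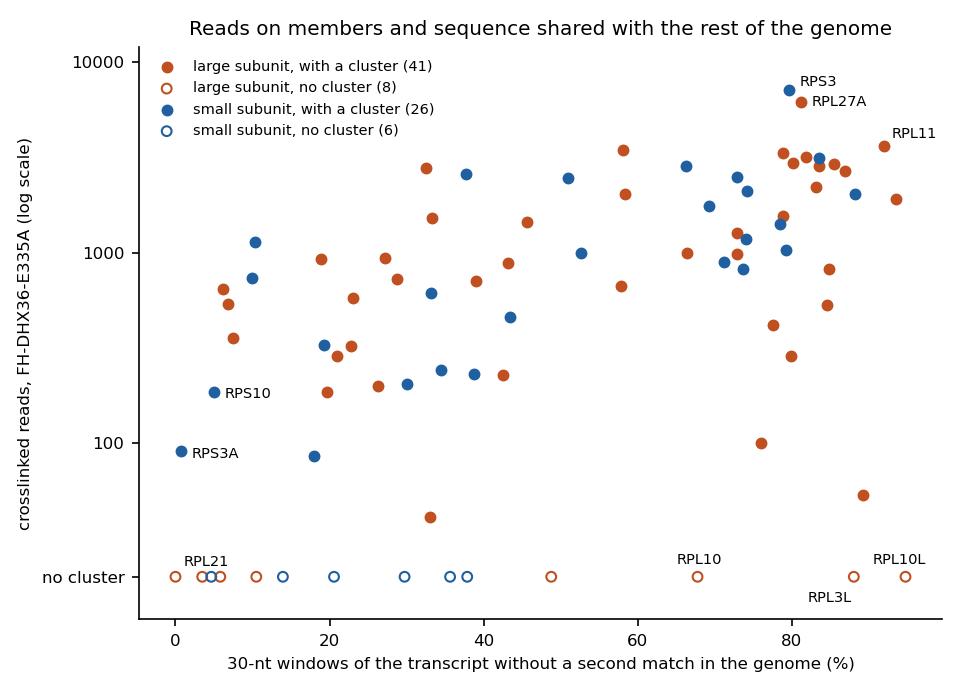
Crosslinked reads with E335A (y axis, log scale, genes without a cluster drawn at the bottom as open circles) against the share of 30-nt transcript windows without a second match in the genome (x axis, %), for all 81 RP mRNAs, coloured by subunit. Most genes without a cluster lie below 50% unique windows, with RPL10, RPL3L and RPL10L as exceptions on the right.

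At least 1 match to the G-run pattern was present in 60 of 81 RP mRNAs, against 94.7% of all canonical transcripts, which are longer. Per kb there were 2.35 matches in RP mRNAs, 2.63 in all genes and 2.22 in mitochondrial ribosomal proteins. With runs of at least 3 G, the matches were in RPL13, RPL36, RPS9, RPS19 and RPS23 (5 of 81, background 23.8%). RPL13, RPL36, RPS19 and RPS23 were bound in both PAR-CLIPs, with 103, 294, 407 and 382 reads with FH-DHX36 and 1277, 822, 1029 and 3131 with E335A. Of the 3′ UTR reads with E335A, RPS23 had 1340, RPL13 had 554, RPL36 had 163 and RPS19 had 14.

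Of the 60 RP mRNAs with a match, 49 were bound with FH-DHX36 and 54 with E335A. Of the 21 without, 11 and 13 were bound. Those with a match were longer (median 1022.5 against 566 nt) and had more unique 30-nt windows (median 71.1% against 34.5%), and the part of either in the difference was not tested. A 3′ UTR match went with a 3′ UTR cluster in 22 of 28 genes with E335A and 13 of 28 with FH-DHX36. Without a match such a cluster was present in 10 of 53 and 5 of 53. Of all bound genes, whatever their matches, 78.4% and 52.5% had a 3′ UTR cluster. The median 3′ UTR length with and without a match was 1434.5 and 58 nt, so that match and length cannot be told apart. For the CDS the counts with E335A were 27 of 47 with a match and 16 of 34 without. For the 5′ UTR they were 6 of 22 and 12 of 59. With FH-DHX36 the CDS counts were 21 of 47 and 9 of 34, and the 5′ UTR counts 5 of 22 and 6 of 59. These groups include genes without a cluster. Of all bound genes, 65.2% with E335A and 46.9% with FH-DHX36 had a CDS cluster, and 20.4% and 18.6% a 5′ UTR cluster. Regions with a match were longer here too, at a median of 537 against 385.5 nt (CDS) and 53.5 against 39 nt (5′ UTR). The part of length in these counts was not tested. RPL15, which has a 3′ UTR of 1488 nt, had no match anywhere and yet 241 and 3460 reads in the 3′ UTR. RPS4X and RPS24 had no match either, and 2862 and 2457 reads with E335A. RPL14 and RPL37 had the most matches, 18 each. RPL37 was bound in both, with 1316 and 2908 reads, and RPL14 had 100 reads with E335A only.

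The canonical transcript began with a C within a run of at least 5 pyrimidines in 58 of the 81 RP mRNAs (71.6%, background 4.70%), in 5 of 77 mitochondrial ribosomal proteins and in 17 of 19 other TOP mRNAs with a transcript. The other TOP mRNAs were bound in 17 of 20 genes with FH-DHX36 and 20 of 20 with E335A. EEF2, the elongation factor that moves the ribosome along, held 13653 and 39253 reads, more than any RP mRNA.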

How the data were processed

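The deposited table gives, for 26490 genes and each cell line, whole-number counts of clusters and crosslinked reads, in total and by 5′ UTR, CDS, 3′ UTR and intron, and NXPM, a score the authors obtained by dividing library-scaled crosslinked reads by mRNA abundance. Per the study's methods, mapping was to hg19, and clusters were called with PARalyzer in PARpipe at default settings and annotated with GENCODE release 19. The submitters' processing notes name bcl2fastq 2.17.1 and the aligner is not given in the sources used here. Because the 2 biological replicates of a line are combined in the table, no test was possible.

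Abundance was recovered as library-scaled reads divided by NXPM, less 0.001. Reads outside the 4 annotations are the total minus the annotated reads. Log2 ratios compare shares of all reads, and their counting error treats reads as Poisson counts. A fold of 2 was the call, at least 50 reads in both the minimum for ranking ratios. Shares carry 95% Wilson intervals. Transcript lengths, G runs, pseudogenes and snoRNAs come from GENCODE release 44 on GRCh37, canonical transcripts, in Python 3.11.15 with pandas 2.3.3, numpy 2.4.6 and scipy 1.17.1. The scripts were tested on simulated data.

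The genes and lists were chosen with earlier results of these data known. Genes named are the 8 with the most reads per PAR-CLIP, the 5 highest and 5 lowest NXPM at an abundance of at least 1, those without a cluster, the 4 highest and 4 lowest ratios, the 4 with the most reads per region, the stalk, 5S particle, paralog pairs, RPS27A, RPS3, RPL23 and genes with a G-run match. The remaining examples, such as genes named for reads outside the annotations, were picked after their values were seen. Values of a few further genes that this rule names are not reported here.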

Additional observations from a re-analysis of the deposited data

How the results depend on the processing

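No paired analysis was possible because the table combines the replicates of a line, and for the same reason no replicate could be left out. The counts of bound RP mRNAs and the counts past 2-fold stayed within 1.5 times of those reported. RP mRNAs called bound numbered 42 (exonic clusters) to 63 with FH-DHX36 and 59 to 70 with E335A. The median log2 ratio was 0.35 with at least 50 reads in both and 0.44 scaled to the median gene. Scaled to the totals of exonic reads it was 0.58, a setting that adds the same 0.0135 to every ratio. The intronic reads of each gene and its reads outside the annotations stayed in that ratio. The ratio of exonic reads alone was not determined. The share of reads on RP mRNAs was 0.701% with FH-DHX36 and 0.656% with E335A of exonic reads, so the order of the PAR-CLIPs turned. It was 0.851% and 1.07% without the 4 paralogs, 0.895% and 1.12% with 3 ribosomal protein genes outside the name rule added, and 0.792% and 1.01% without the mRNA with the most reads. By clusters, the 5′ UTR, CDS and 3′ UTR shares were 12.7%, 47.1% and 40.2% with FH-DHX36 and 9.43%, 36.8% and 53.8% with E335A. Over all genes the cluster shares were 10.2%, 38.3% and 51.5%, and 5.05%, 35.7% and 59.2%. As medians over genes the shares of RP mRNAs were 0%, 43.8% and 0%, and 0%, 52.3% and 14.5%. With intronic reads in the denominator they were 6.95%, 32.4% and 40.003%, and 3.73%, 37.03% and 48.5%. Without the mRNA with the most reads, the 5′ and 3′ UTR shares were 10.2% and 48.7%, and 4.89% and 53.3%. Against the share expected from length, the 5′ UTR held 2.87 times as many reads with FH-DHX36 and 1.08 times with E335A. Over all genes these values were 2.25 and 1.08. With the longest transcript those of RP mRNAs were 1.34 and 0.518, so the second reversed. The CDS held 1.36 and 1.26 times as many (all genes 0.891 and 0.538). The 3′ UTR held 0.754 and 0.861 times as many (all genes 0.976 and 1.37). The expectations for RP mRNAs rest on a few long 3′ UTRs. Median NXPM with FH-DHX36 was 0.0259 for RP mRNAs with at least 2 clusters. RP mRNAs stood at a median percentile of 0.750 (FH-DHX36) and 0.767 (E335A) of bound genes by NXPM and at 62.5 and 75.2 by library-scaled reads. The G-run pattern matched 60 RP mRNAs with runs of 2 G and 5 with runs of 3. The cause of these shifts was not tested beyond the construction of each setting. NXPM per kb was added after seeing the data. Depth differed 4.05-fold between the PAR-CLIPs, so a gene without a cluster with FH-DHX36 was only not detected at that depth.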
